A study of Mus musculus with 4 samples.

Results

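The BCL2 family of apoptosis regulators was followed in mouse embryonic stem cells after RNA interference against Npac, a nucleosome-binding chromatin factor now called Glyr1. Its members were 10 genes chosen by symbol: Bcl2, Bcl2l1 and Mcl1, which oppose apoptosis, and Bax, Bak1, Bcl2l11, Bik, Bid, Bbc3 and Pmaip1, which promote it. Every probe set whose single gene symbol in the array annotation was one of these names was used, which gave 30 of the 45037 probe sets other than manufacturer's controls and covered 9 of the 10 genes. Bax matched no probe set in the annotation used here and was not analysed here. The anti-apoptotic genes had 15 probe sets (6 for Mcl1, 5 for Bcl2 and 4 for Bcl2l1), and the pro-apoptotic genes also had 15 (5 for Bcl2l11, 3 each for Bik and Bid, 2 for Bak1 and 1 each for Bbc3 and Pmaip1).

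The cells were E14, a single mouse embryonic stem cell line, grown in 15% serum with 1000 units per ml of LIF, the cytokine that keeps such cells undifferentiated. The groups were E14 with control RNAi (2 arrays) and E14 with Npac RNAi (2 arrays). Both carried a hairpin construct delivered by transfection, received puromycin 24 hours later and were under that selection for 3 days; what the control hairpin targets is not given in the sources used here. Nothing in the labels says that the 2 arrays of a group came from separate cultures, so p-values measure the spread between these arrays, which may be technical. Glyr1 read 11.30 and 11.32 on the control arrays and 10.23 and 10.20 on the Npac RNAi arrays, 46.9% of the control level (log2 difference -1.09, SE 0.0554, limma adjusted p = 0.00171). Across probe sets, which are not independent, Pearson's r was 0.998 within each group and between 0.987 and 0.989 from one group to the other.

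BCL2 proteins decide at the mitochondrial outer membrane whether a cell enters the intrinsic path of apoptosis. BAX and BAK, the effectors, form pores that release cytochrome c; BCL2, BCL-XL and MCL1, the guardians, hold them in check; BH3-only proteins, made or activated under stress, bind the guardians or the effectors and tip the balance toward pores. Embryonic stem cells are known to be primed for this path and to die readily after DNA damage. An array reads transcripts only, and much of this family is controlled at the protein level, for example by cleavage of BID and rapid turnover of MCL1.

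Transcripts of 4 of the 5 BH3-only genes were higher with Npac RNAi, namely Bik (up to 2.35-fold), Pmaip1 (1.79-fold), Bbc3 (1.59-fold) and Bcl2l11 (up to 1.57-fold). The fifth, Bid, was lower in 2 of its 3 probe sets, at 77.8% to 80.3% of control, and unchanged in the other. Among the guardians, 1 probe set of Bcl2l1 (1.80-fold) and 1 of Mcl1 (1.16-fold) were higher, and none of the 5 for Bcl2 was called. Levels are RMA values on the log2 scale, so a difference of 1 is a doubling; each difference is the Npac RNAi mean minus the control mean, its SE is limma's moderated one (n = 2 arrays per group throughout), and a probe set was called at a Benjamini-Hochberg adjusted p under 0.05 over all 45037 probe sets. In total 13 of 30 member probe sets were called, 10 higher and 3 lower, against a background of 28.2% of all probe sets called (14.2% higher and 14% lower). For the pro-apoptotic genes 8 of 15 probe sets were higher and 3 lower, with a median log2 difference of 0.47, and for the anti-apoptotic genes 2 of 15 were higher and 0 lower (0 lower also at an unadjusted limma p under 0.05), with a median of 0.08; the median over all probe sets was -0.06. A call with at least a 1.5-fold change was made for 6 pro-apoptotic and 1 anti-apoptotic probe sets, against 7.80% of all probe sets. The groups did not overlap for 14 of 15 pro-apoptotic and 9 of 15 anti-apoptotic probe sets, against 69.0% of all probe sets. These shares describe the chosen genes, whose probe sets share transcripts and are not independent. Most members were bright: 22 of the 30 lay above the median level, and 12 of the 13 calls fell there. A fit of only the probe sets at or above the median level called 12804, beside 12705 in the fit of all. Among the 22 bright member probe sets that fit called 8 pro-apoptotic higher and 2 lower, and 3 anti-apoptotic higher and 0 lower. The share called in that fit was thus far above 28.2%, which is not a share at like level. The 13 member calls are therefore not read as an excess. The part of level in these contrasts was not tested.

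**Figure D1:**
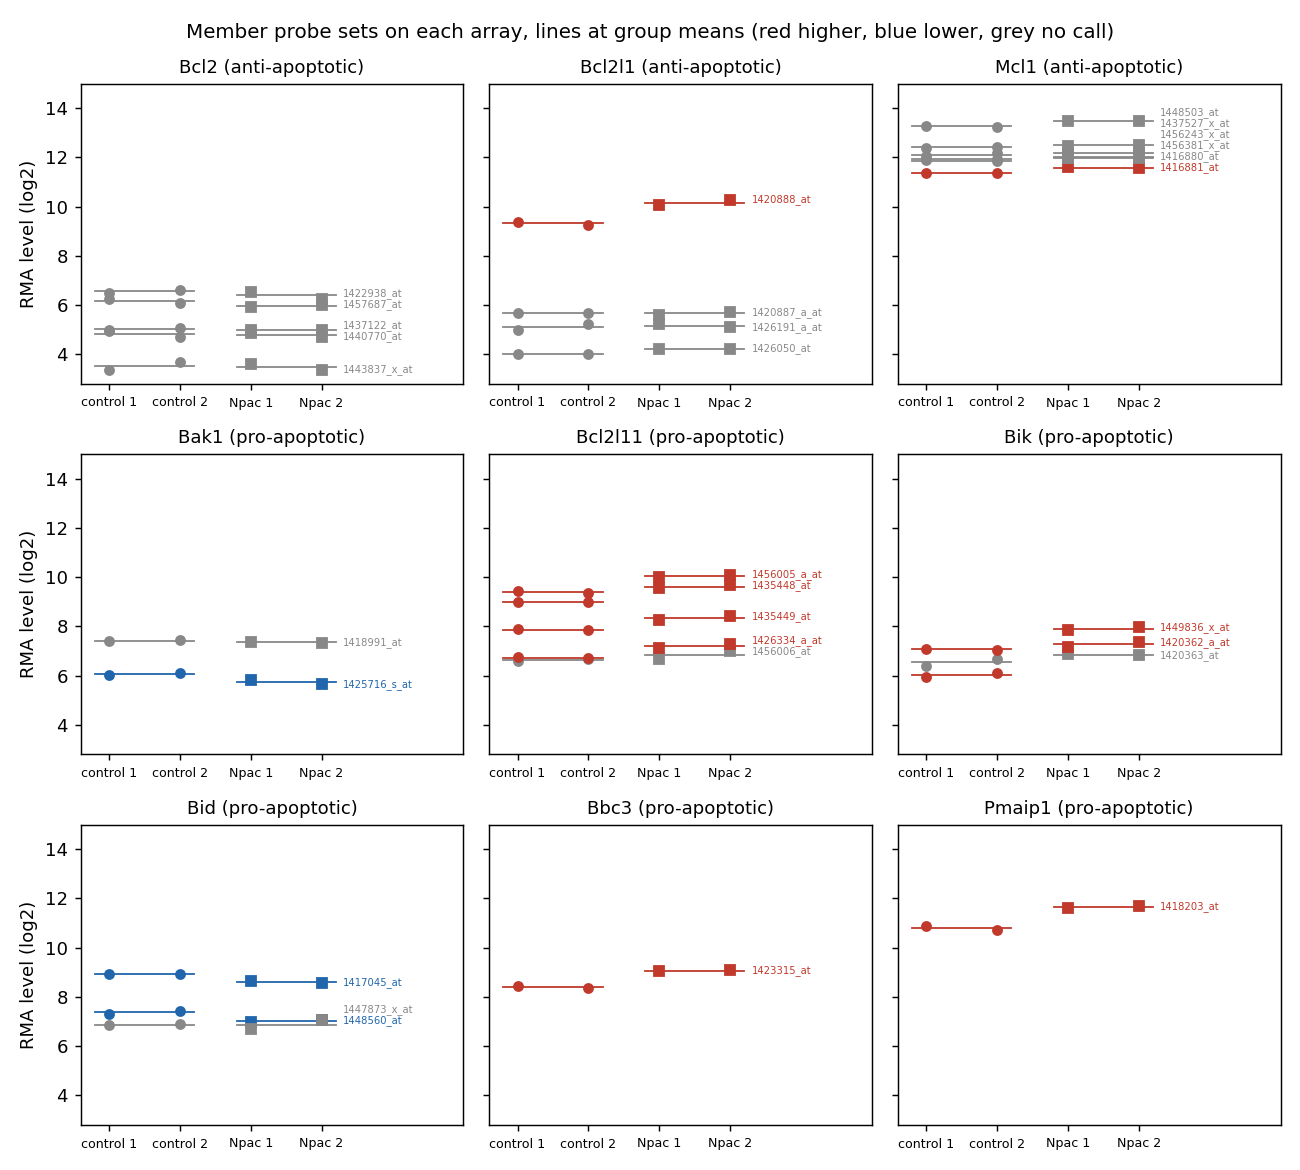
RMA level (log2 scale) of each member probe set on the 4 arrays, 1 panel per gene, with circles for control RNAi, squares for Npac RNAi and lines at the group means; red marks probe sets called higher, blue lower and grey no call. Bik, Bbc3, Pmaip1 and the brightest Bcl2l1 probe set stepped up on both Npac RNAi arrays, and the Bcl2 probe sets lay within or close to their control values.

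Directions depend on the scale to which the arrays were set. Poly-A spike-ins are bacterial RNAs that the usual protocol adds in equal amounts before labelling. All 24 probe sets for them gave higher values with Npac RNAi, by 0.54 on average. Several of these probe sets read the same RNA, so the 24 are not independent. Equal addition is taken from the usual protocol and was not tested here. Scaling the arrays on the spike-ins moved every log2 difference by -0.54. With it 3.79% of all calls were higher in place of 50.2%, and the member calls became 4 higher and 20 lower. The 4 that were still called higher were both called Bik probe sets (0.70 and 0.31), Pmaip1 (0.30) and Bcl2l1 1420888_at (0.31). After quantile normalization and after cyclic loess the member calls were 11 higher and 2 lower, and after centring on the median 10 and 3. All directions given here are therefore relative to the transcripts of the array as a whole.

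The members moved alongside a wider change in the cells. Of 10 embryonic stem cell markers 7 were lower and 0 higher, although all stayed bright (sum of their log2 levels 124.2 on each control array and 119.2 and 119.4 on the Npac RNAi arrays). Of 11 trophectoderm markers 9 were higher and 0 lower, with sums of 89.1 and 88.7 on the control arrays and 104.7 and 105.1 on the Npac RNAi arrays; Elf5 and Tpbpa, the members below the 25th percentile of level, had no call. Of 10 fibroblast markers, read because feeder cells can accompany such cultures, 1 was higher and 1 lower, 4 lay below the 25th percentile, and the sums ran from 58.3 to 59.1 in control and from 58.3 to 58.7 in Npac RNAi. With 1 array left out, 2 to 4 embryonic stem cell, 7 to 8 trophectoderm and 0 to 1 fibroblast markers were called, the fewest embryonic stem cell markers without control array 2. With spike-in scaling, 10 embryonic stem cell markers were lower, 7 trophectoderm markers were higher and 1 lower, and 1 fibroblast marker was higher and 9 lower. RMA values have no true zero, so no marker could be read as absent. The part of these shifts in the changes of the BCL2 family was not tested, and in such bulk samples fewer cells of a type and less RNA per cell cannot be told apart.

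Bik, a BH3-only protein that acts mainly from the endoplasmic reticulum, had the member probe set with the greatest difference; at the brightest probe set of each gene Bcl2l1 (0.848) stood level with Bik (0.846), and by the mean of probe sets Pmaip1 (0.84) lay above Bik (0.80). Its probe set 1420362_a_at read 5.95 and 6.12 on the control arrays and 7.18 and 7.36 on the Npac RNAi arrays (log2 difference 1.24, SE 0.0995, limma adjusted p = 0.0039). Its brightest probe set, 1449836_x_at, read 7.08 and 7.06 against 7.86 and 7.96 (0.85, SE 0.0645, limma adjusted p = 0.0035). In both, the 2 Npac RNAi arrays lay well above the 2 control arrays, and both calls held with any 1 array left out. The suffix _x_at marks probes that may also bind other transcripts. The third probe set, 1420363_at, read 6.395 and 6.677 against 6.889 and 6.824; these groups did not overlap either, but it was not called (0.32, 95% interval 0.03 to 0.61, limma adjusted p = 0.0935).

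Pmaip1 encodes NOXA, a BH3-only protein that binds MCL1 in particular and a known p53 target. It was read by 1 probe set, at 10.88 and 10.74 in control RNAi and 11.62 and 11.67 in Npac RNAi. The groups were apart by several times the spread within either (0.84, SE 0.0757, limma adjusted p = 0.00484), and the call held with each array left out (differences from 0.76 to 0.91). Bbc3 encodes PUMA, a BH3-only protein that binds all guardians and another p53 target. Its single probe set read 8.45 and 8.35 in control RNAi and 9.03 and 9.09 in Npac RNAi (0.66, SE 0.0667, limma adjusted p = 0.00599). The Bbc3 call was lost without control array 2 or without Npac array 2 (adjusted p up to 0.0546), with differences of 0.61 to 0.72, and with spike-in scaling (0.12).

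Bcl2l11 encodes BIM, a BH3-only protein that binds all guardians and can activate the effectors directly; FOXO transcription factors are known to induce it when growth factors are withdrawn. Of its 5 probe sets 4 were higher. The brightest, 1456005_a_at, read 9.446 and 9.347 in control RNAi and 9.997 and 10.07 in Npac RNAi (0.64, SE 0.0686, limma adjusted p = 0.00687). The next, 1435448_at, read 8.97 on both control arrays and 9.57 and 9.67 with Npac RNAi (0.65, SE 0.063, limma adjusted p = 0.00562). Both groups of both probe sets were clear of each other. The probe set 1435449_at moved from 7.88 and 7.84 to 8.26 and 8.41 (0.48, SE 0.0743, limma adjusted p = 0.0156), and 1426334_a_at from 6.76 and 6.71 to 7.11 and 7.30 (0.47, SE 0.0871, limma adjusted p = 0.0229). Their steps were smaller, again without overlap. The last, 1456006_at, with values of 6.59 and 6.66 against 6.68 and 6.99, was not called (0.21, 95% interval -0.10 to 0.52). Without control array 2 all 4 calls were lost, and without Npac array 2 all but that of 1435448_at (adjusted p up to 0.121 over the 4 arrays left out in turn). The calls on 1435449_at and 1426334_a_at were also lost without control array 1 and with the replicate block. With spike-in scaling all 4 were lost as well, at 0.10, 0.11, -0.06 and -0.07 in the order given.

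Bid, whose protein is cut by caspase-8 and so links death receptors to mitochondria, went the other way from the other BH3-only genes. The brightest probe set, 1417045_at, read 8.92 and 8.95 in control RNAi and 8.65 and 8.58 in Npac RNAi (-0.32, SE 0.0598, limma adjusted p = 0.0244). The probe set 1448560_at read 7.32 and 7.43 against 6.98 and 7.04 (-0.36, SE 0.0687, limma adjusted p = 0.0245). Both groups were separate in each, but the steps were small and leaving out any 1 of the 4 arrays lost both calls (adjusted p reaching 0.118), as did the replicate block; with 1 array left out the differences stayed between -0.42 and -0.28. The probe set 1447873_x_at showed no net difference (0.00, 95% interval -0.36 to 0.36), its 2 Npac RNAi arrays lying at 6.69 and 7.07, on either side of the control arrays at 6.86 and 6.89.

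RefSeq promoter windows from 250 bases before to 50 bases after a start site (build GRCm38.p6) were searched for the measured genes of the family. Windows were found for 7 of the 9 measured genes, 12 windows in all; Bik and Pmaip1 have none in the table used. The decamer motif of p53, searched with its usual degenerate bases on both strands, was in none of the 12, against 8.36% of 32851 windows of all genes; the window of Bax, not measured here, holds 1. The forkhead core TGTTTAC, also searched on both strands, was in 2 of the 12, against 3.65% of all windows. The GC box GGGCGG was in 8 of 12, against 35.7%. Of the 12 windows 11 hold more CpG than the median window, and the part of base composition in these shares was not tested. The windows are not independent either, as the Bbc3 windows that start at 16310011 and 16310181 overlap. No forkhead match overlapped a GC box. The 2 windows with a forkhead core belong to Bcl2l11 and Bbc3, both higher with Npac RNAi, and are shown with the core in capitals. The window of Bid, the BH3-only gene that was lower, is shown beside them. It holds no forkhead core, and neither do the windows of Bcl2, Mcl1 and Bak1. In Bcl2l11 (chr2:128125788-128126087, plus strand) the first base of the match is at -227 from the start site, and the core lies on the opposite strand, so that it prints as GTAAACA; in Bbc3 (chr7:16310011-16310310, plus strand) the first base is at -167. Bid lies at chr6:120916775-120917074 on the minus strand, and each sequence is given 5′ to 3′ on the gene's strand. Bcl2l11 and Bbc3 each have other windows without a match. None of the 3 windows of Bcl2l1, which was called higher in 1 of its 4 probe sets, holds the core. A match of letters is a description and shows no binding, and no match says only that these letters are not in the window.
Bcl2l11: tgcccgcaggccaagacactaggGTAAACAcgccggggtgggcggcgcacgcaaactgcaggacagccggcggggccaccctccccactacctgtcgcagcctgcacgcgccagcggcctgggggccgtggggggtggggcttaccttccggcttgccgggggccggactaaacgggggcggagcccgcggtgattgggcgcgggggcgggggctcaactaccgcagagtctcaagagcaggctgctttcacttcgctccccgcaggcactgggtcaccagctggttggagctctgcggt
Bbc3: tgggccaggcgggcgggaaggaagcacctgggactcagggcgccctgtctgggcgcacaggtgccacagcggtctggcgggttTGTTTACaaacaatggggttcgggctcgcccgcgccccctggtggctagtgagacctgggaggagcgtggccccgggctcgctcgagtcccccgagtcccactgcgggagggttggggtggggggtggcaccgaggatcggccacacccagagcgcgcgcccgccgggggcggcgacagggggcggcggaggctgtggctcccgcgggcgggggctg
Bid: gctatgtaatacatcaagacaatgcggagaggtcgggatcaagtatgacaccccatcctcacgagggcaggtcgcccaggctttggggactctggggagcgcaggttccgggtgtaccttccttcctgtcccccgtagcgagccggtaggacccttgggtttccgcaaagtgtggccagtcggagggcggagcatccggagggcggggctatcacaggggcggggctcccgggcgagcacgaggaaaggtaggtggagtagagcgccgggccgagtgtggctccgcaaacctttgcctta

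Bak1, the measured effector, gave no clear difference. The probe set 1418991_at read 7.40 and 7.43 in control RNAi and 7.38 and 7.33 in Npac RNAi, values that nearly touched (-0.06, 95% interval -0.22 to 0.09). The dimmer 1425716_s_at, whose suffix marks probes shared by several transcripts, read 6.02 and 6.10 against 5.82 and 5.65 and was called lower (-0.32, SE 0.0817, limma adjusted p = 0.0478). That call was at the edge of the threshold and was lost on leaving out each of the 4 arrays in turn (adjusted p reaching 0.191), and under the trend and robust options, quantile normalization, cyclic loess and the replicate block.

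**Figure D2:**
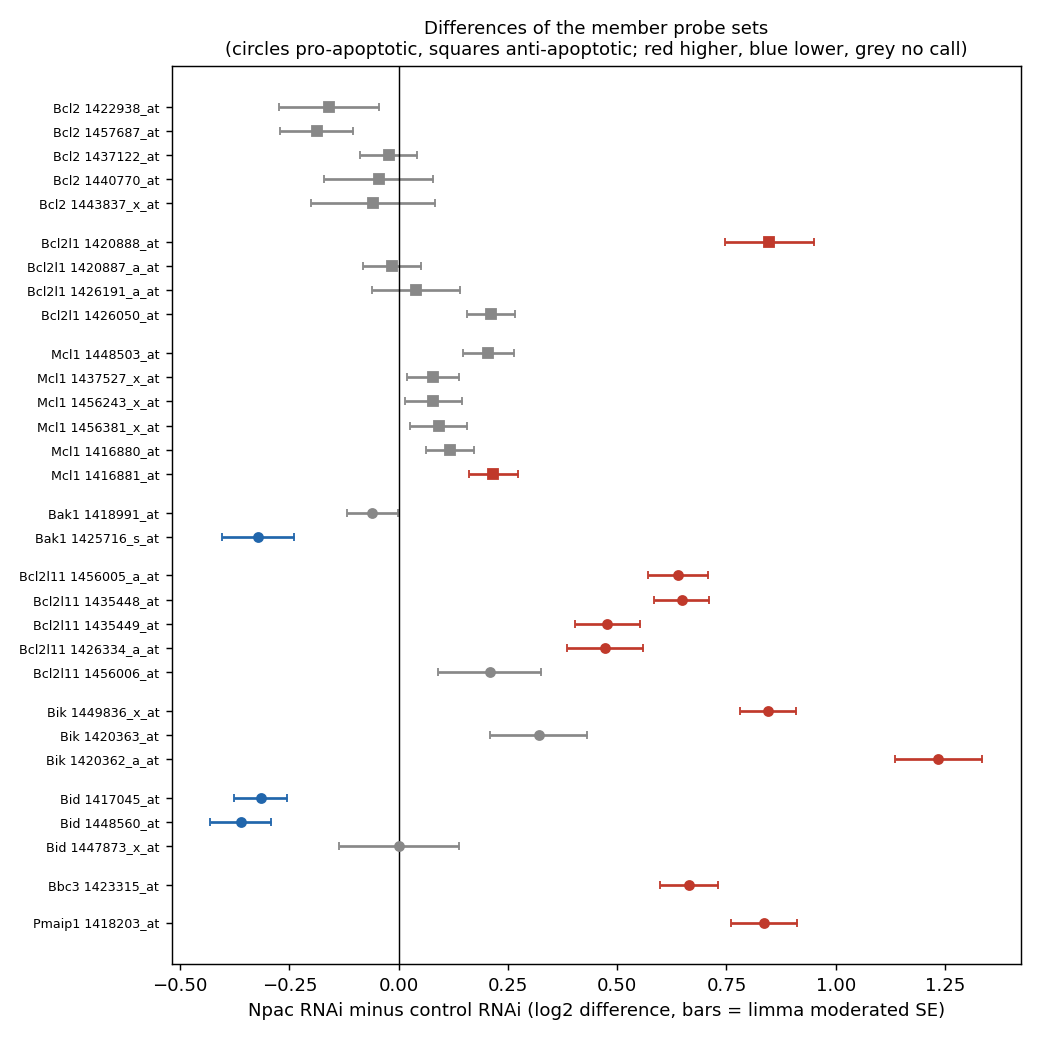
Log2 difference (Npac RNAi minus control RNAi) of the 30 member probe sets with limma's moderated SE as bars; circles are pro-apoptotic and squares anti-apoptotic, red called higher, blue lower and grey not called. The BH3-only genes Bik, Pmaip1, Bbc3 and Bcl2l11 lie to the right of 0 and Bid to the left or at 0, while Bcl2 and Mcl1 lie within 0.22 of 0.

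Bcl2l1 encodes BCL-XL, a guardian, and by alternative splicing also a short pro-apoptotic form. The probe set 1420888_at, the only one of its 4 above the median level, read 9.40 and 9.24 in control RNAi and 10.06 and 10.27 in Npac RNAi (0.85, SE 0.102, limma adjusted p = 0.00889). The groups were well apart, but the call was lost without control array 1, control array 2 or Npac array 2 (adjusted p up to 0.0675; differences from 0.74 to 0.95). The other probe sets of the gene were dim. The one named 1420887_a_at read 5.66 and 5.69 against 5.61 and 5.72 (-0.01, 95% interval -0.19 to 0.16), 1426191_a_at read 5.00 and 5.23 against 5.21 and 5.10 (0.04, 95% interval -0.23 to 0.31), and both pairs of groups overlapped. At 4.023 and 4.004 against 4.22 and 4.23, 1426050_at just missed the call (0.21, limma adjusted p = 0.0508), was called higher after quantile normalization and cyclic loess, and turned to -0.33 with spike-in scaling. Averaging the 4 probe sets lowered the difference of the gene to 0.27.

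Whether probe sets of a gene differed in their response was tested in a limma fit of each probe set minus the brightest probe set of its gene, over all 16752 such pairs on the array, a fit added after the values were seen. Of the 21 pairs within the family 4 were called, a share like the 19.2% of all pairs. All 3 dim probe sets of Bcl2l1 showed a smaller difference than 1420888_at, by 0.64 to 0.86 (limma adjusted p = 0.00973, 0.0202 and 0.0346), as did 1420363_at of Bik against its brightest probe set, by 0.53 (limma adjusted p = 0.0486). The 3 Bcl2l1 pairs share the reference 1420888_at and are not independent. In the annotation, 1420888_at and 1420887_a_at were designed from the same transcript record. Which transcripts or parts of transcripts the 4 probe sets read is not given in the sources used here, and the part of dimness in this difference was not tested.

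Mcl1 encodes a short-lived guardian that the early embryo is known to need, and its 6 probe sets were among the brightest of the array. All 6 were slightly higher on both Npac RNAi arrays without overlap, with differences from 0.08 to 0.22, but 1 was called. The probe set 1416881_at read 11.38 and 11.36 in control RNAi and 11.59 and 11.58 in Npac RNAi (0.22, SE 0.0555, limma adjusted p = 0.0486), a call lost on leaving out whichever array (adjusted p reaching 0.175). The brightest, 1448503_at, read 13.30 and 13.24 against 13.48 and 13.47 (0.21, limma adjusted p = 0.0599) and was called higher in 6 alternatives, such as the trend option and 1 probe set per gene. These differences were small, and with spike-in scaling all 6 were called lower, from -0.46 to -0.32.

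Bcl2, the founding guardian of the family, was not called in any of its 5 probe sets, all at a modest or low level. The brightest, 1422938_at, read 6.50 and 6.62 in control RNAi and 6.54 and 6.26 in Npac RNAi, and these groups overlapped (-0.16, 95% interval -0.46 to 0.15). The next, 1457687_at, read 6.25 and 6.08 against 5.94 and 6.01, a small step down without overlap and without a call (-0.19, 95% interval -0.41 to 0.03). The other 3 differed by -0.06 to -0.02, with overlapping groups. With spike-in scaling all 5 were called lower, from -0.73 to -0.56. Of the whole family 3 probe sets lay below the 25th percentile of level (4.84), 2 of Bcl2 and 1 of Bcl2l1, and 0 of them were called.

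**Figure D3:**
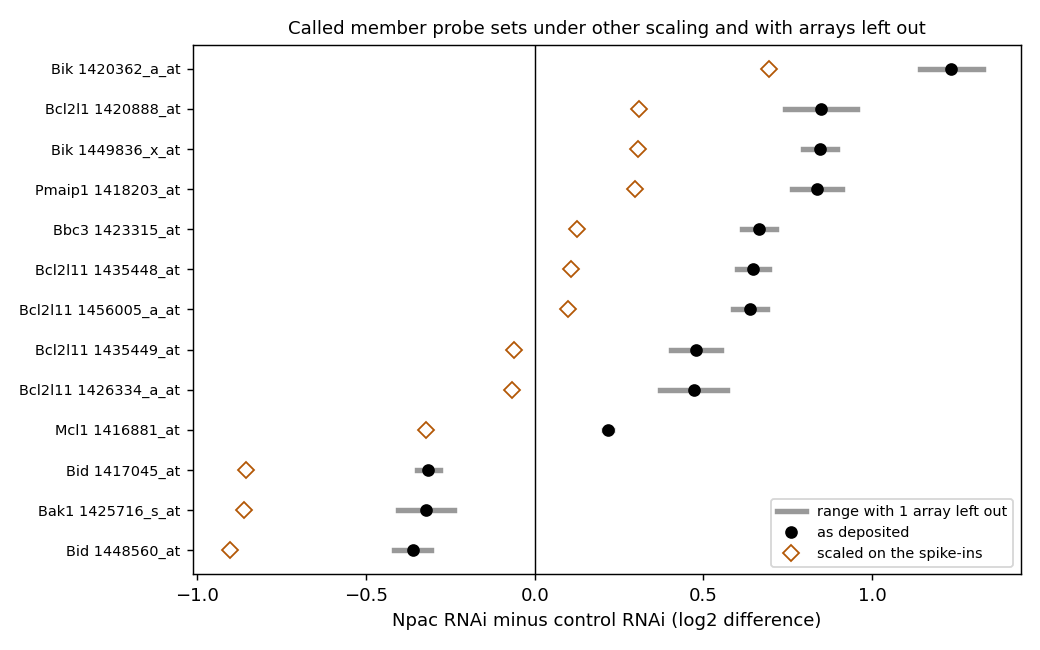
Log2 difference of the 13 called member probe sets as deposited (black points), its range with 1 array left out (grey bars) and after scaling on the spike-ins (open diamonds). The ranges with 1 array left out are narrow beside the shift from spike-in scaling, which took Mcl1 and the lower pair of Bcl2l11 probe sets below 0.

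Beyond the 10 genes, 4 lists of apoptosis genes were read at each gene's brightest probe set; at that level 33.9% of 18193 genes were called, 19.3% higher and 14.6% lower, with a median difference of -0.04. Over the lists 24 of 55 measured genes were higher and 7 lower, and with spike-in scaling 5 were higher and 34 lower. Among 11 other BCL2 relatives 4 were higher and 0 lower (1 lower at an unadjusted p under 0.05; median -0.00). They included Bnip3, a mitochondrial protein known for mitophagy (1.01, limma adjusted p = 0.00198), the guardian Bcl2l2 (0.53, limma adjusted p = 0.00889) and Bcl2l13 (0.33, limma adjusted p = 0.0291, a call lost with each array left out). Bnip3 read 11.05 and 11.02 in control RNAi and 12.04 and 12.05 in Npac RNAi and was called in each of the 19 alternatives, whereas Bcl2l2 shrank to 0.12 as the mean of its probe sets and to -0.01 with spike-in scaling, and its call was lost without control array 2, Npac array 1 or Npac array 2. The mean of its probe sets also took Bcl2l13 to 0.19. The 7 without a call were Bok, the BH3-only genes Bad, Bmf and Hrk, and Bcl2l12, Bcl2l14 and Bcl2l15, with differences from -0.22 (Hrk) to 0.11 (Bmf). After quantile normalization 3 of these 11 relatives were higher and 3 lower. With filters on level, 1 probe set per gene or the mean of probe sets, 1 was lower.

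Downstream of the mitochondria, 6 of 19 genes of the apoptosome, caspases and their inhibitors were higher and 4 lower (median -0.03). Genes on both sides of the process were among the higher ones. The inhibitor of apoptosis gene Birc3 (0.998, limma adjusted p = 0.00245), the DNA-cutting nuclease gene Dffb (0.68, limma adjusted p = 0.00538) and Apaf1, the scaffold of the apoptosome (0.57, limma adjusted p = 0.00553), had the smallest adjusted p. Lower were Parp1, a DNA repair enzyme and caspase substrate (-0.73, limma adjusted p = 0.00562), Birc5, an inhibitor of apoptosis with a role in cell division (-0.27), and the outer membrane channel Vdac1 (-0.29), the last pair lost with any array left out. The calls on Apaf1, Dffb and Parp1 were lost without control array 2, and with spike-in scaling Apaf1 stood at 0.03 and Dffb at 0.14. As the mean of its probe sets Birc3 came to 0.49, still called.

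In the death receptor pathway 4 of 11 measured genes were higher and 2 lower (median 0.16). The receptor Fas read 6.18 and 6.32 in control RNAi and 7.57 and 7.76 in Npac RNAi (1.42, limma adjusted p = 0.00271). Casp8, the protease that cuts BID (0.54), and its inhibitor Cflar (0.54) were higher too, while the ligand gene Tnfsf10 (-0.36), which was dim, and the receptor Tnfrsf1b (-0.28) were lower, both calls lost with any array left out. With spike-in scaling Casp8 and Cflar came to 0.01 and -0.00, and as means of their probe sets Cflar came to 0.22 and Tnfsf10 to -0.21, both called. Leaving out control array 2 or Npac array 2 lost both calls; so did leaving out Npac array 1 for Casp8 and control array 1 for Cflar.

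Of 14 measured regulators of the family's transcription and turnover 10 were higher and 1 lower (median 0.39). As means of their probe sets 8 were higher and 1 lower (median 0.22). With spike-in scaling 2 were higher and 6 lower (median -0.15). With 1 array left out the median ran from 0.33 to 0.43. Mdm2, a p53 target and the ligase that limits p53 (1.18, limma adjusted p = 0.00153), and Akt1, a survival kinase (1.02, limma adjusted p = 0.00294), had the smallest adjusted p of the list, and the call on Mdm2 held in all 19 alternatives. As the mean of its probe sets Akt1 came to 0.36, still called. Fbxw7, part of a ligase that marks MCL1 for degradation, was higher (0.53, limma adjusted p = 0.00648; -0.01 with spike-in scaling; lost without control array 1, control array 2 or Npac array 2), and Mdm4, another p53 inhibitor, was lower (-0.35, limma adjusted p = 0.0164), a call lost with any array left out. The forkhead genes Foxo1 (0.69) and Foxo3 (0.27), named after their values were seen, were higher, and with spike-in scaling Foxo1 was at 0.15 and Foxo3 at -0.27, called lower. The Foxo1 call was lost without control array 2 or Npac array 2, and the Foxo3 call with any array left out. Trp53 matched no probe set in the annotation used here.

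**Figure D4:**
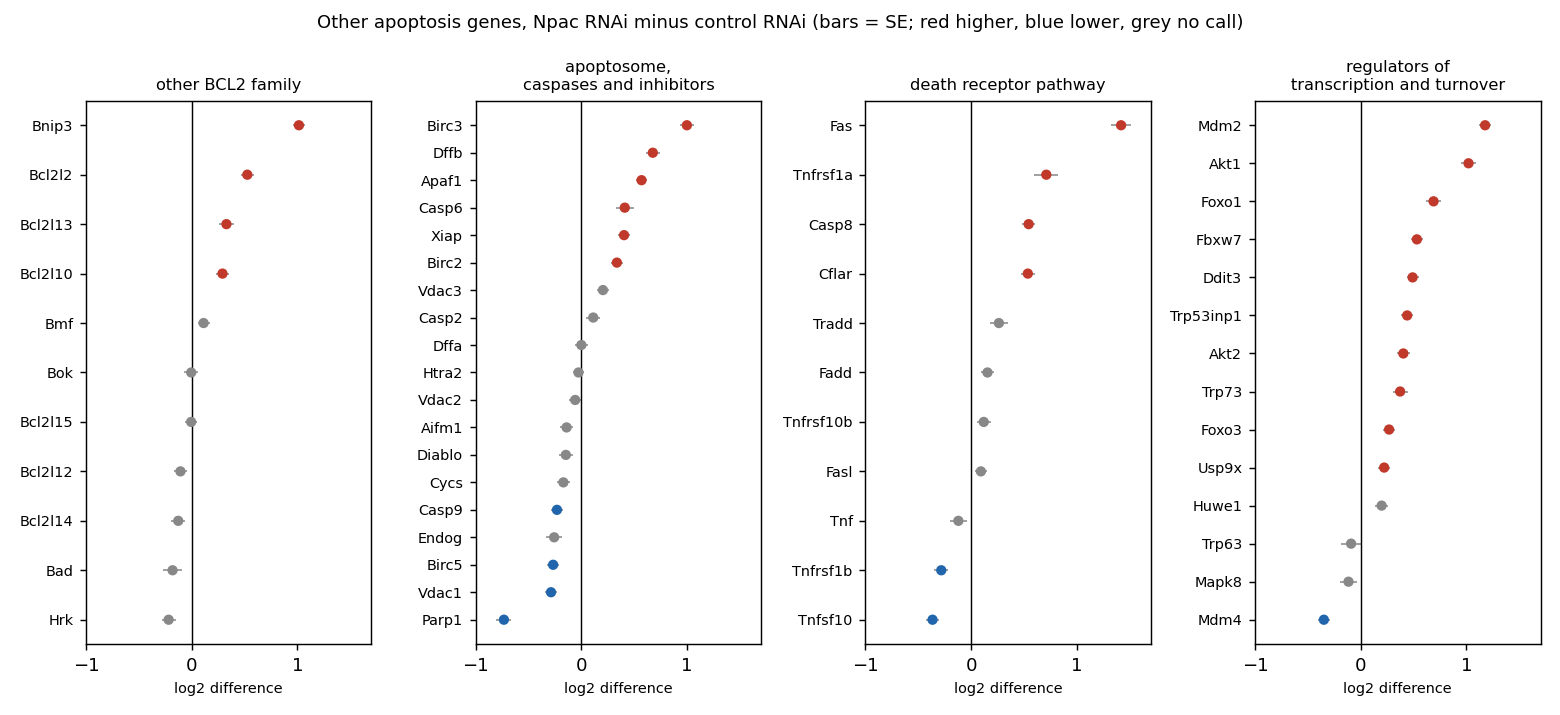
Log2 difference (Npac RNAi minus control RNAi, with SE bars) of the measured genes of the 4 other apoptosis lists at their brightest probe sets; red is called higher, blue lower and grey not called. Genes that promote and genes that limit apoptosis appear on both sides of 0, with Fas (1.42), Mdm2 (1.18), Akt1 (1.02), Bnip3 (1.01) and Birc3 (0.998) farthest to the right.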

How the data were processed

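RNA from 4 samples was read on Affymetrix arrays. Each array has 1 deposited log2 value per probe set, made by the authors with RMA, which the submitters' processing notes name without a version; the log base was inferred from the values (5 µg of total RNA was labelled per the labels' protocols). No counts exist, so depth is not defined and the number of arrays limits the precision. Of 45101 probe sets 64 controls were left out of the tests, 34945 had 1 gene symbol, 932 several and 9160 none in the annotation used here. Npac RNAi and control RNAi arrays were fitted in limma 3.58.1 (R 4.3.3, lmFit and eBayes; 2 residual and 2.56 prior degrees of freedom) on all 45037 probe sets, without a filter on dim ones, with Benjamini-Hochberg adjustment over them. The procedure was tested on simulated data. Alternatives covered the variance step, scaling, filters, probe set choice, thresholds, the replicate number and each array left out. Markers of embryonic stem, trophectoderm and fibroblast cells were read at each gene's brightest probe set. Members and lists were chosen with earlier results of these data known. All probe sets of a member are given; of each other list, the 3 higher and 3 lower called genes with the smallest adjusted p were named, members of small lists without a call being added. Promoter windows and symbols came from RefSeq, assembly GRCm38.p6.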

Additional observations from a re-analysis of the deposited data

How the results depend on the processing

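Results were recomputed under 19 alternatives, of which the crossed replicate block was chosen after seeing the data. Counts are given as anti-apoptotic higher, pro-apoptotic higher and pro-apoptotic lower member probe sets (2, 8 and 3 in the fit reported), all probe sets called (12705), and genes of the other lists higher and lower (24 and 7). Only the counts that moved by over 1.5 times are printed. An adjusted p under 0.01 gave 1 anti-apoptotic higher, 0 pro-apoptotic lower, 3737 called and lists of 13 and 1; a 1.5-fold minimum gave 1, 0, 3511 and lists of 8 and 1. No moderation gave 0, 0 and 0 member calls (5 anti-apoptotic and 8 pro-apoptotic higher and 2 lower at an unadjusted p under 0.05), 1893 called and lists of 5 and 1. The robust option gave 1 anti-apoptotic higher, and the trend option 4, with 11 list genes lower. One probe set per gene gave 4 pro-apoptotic genes higher, 1 lower and 7425 called, and the mean of probe sets 1 anti-apoptotic higher, 4 pro-apoptotic higher, 1 lower and 6779 called; here genes are counted. Spike-in scaling gave 1 and 3 higher, 14 anti-apoptotic and 6 pro-apoptotic lower, 39746 called and lists of 5 and 34. It reversed Bcl2l1 1426191_a_at (-0.50) and 1426050_at (-0.33), all 6 of Mcl1 (-0.33, -0.46, -0.46, -0.45, -0.42 and -0.32 from brightest to dimmest), Bcl2l11 1435449_at (-0.062), 1426334_a_at (-0.068) and 1456006_at (-0.33), and Bid 1447873_x_at (-0.54); these shifts follow from its constant of -0.54. With 1 array left out the anti-apoptotic higher calls ran from 0 to 1, the pro-apoptotic higher from 3 to 8 and lower from 0 to 0, all calls from 2060 to 4237, and the lists from 6 to 11 higher and 0 to 1 lower; the single array left in a group borrows the spread of the other group, and 1 residual degree of freedom is left.

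The replicate numbers are not said to mark a shared batch, and same-numbered arrays deviated from their group means with a correlation of -0.14. The replicate block gave 1 anti-apoptotic higher, 0 pro-apoptotic lower, 4887 called and lists of 14 and 1; the crossed replicate block gave 1 anti-apoptotic higher and 2 list genes lower, both on 1 residual degree of freedom. Over all member probe sets and alternatives, 12 values were reversed, all with spike-in scaling. Among the values not reversed, 73 lost a call and 16 gained one. A reversed value that also lost or gained a call is counted only as reversed. In addition, 22 values without a call in either fit changed sign.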
